A study of Mus musculus with 4 samples.

Results

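The genes described here are 10 genes of the mouse oocyte, namely the zona pellucida genes Zp1, Zp2 and Zp3, the secreted factor genes Gdf9, Bmp15 and Oosp1, and the transcription factor genes Figla, Nobox, Sohlh1 and Lhx8. They were chosen by symbol, and all 10 had a row among the 30049 Ensembl genes of the deposited table. Wild-type F2 embryos of BDF1 parents entered culture as zygotes, 18 h after the hCG (chorionic gonadotropin) given to the females, and stayed for 24 h in KSOM medium. Control embryos had no addition, and DMSO-treated embryos had 2% dimethyl sulfoxide (DMSO), a common solvent, in the medium. RNA-seq was performed on embryos that had reached the 2-cell stage, with 2 libraries per group numbered as replicates 1 and 2 and 50 embryos for each group. Whether each library held embryos of its own is not given in the sources used here, so p-values measure only the spread between these libraries, which may be technical.

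The zona pellucida is the glycoprotein coat that the growing oocyte lays down around itself, built from filaments of ZP2 and ZP3 that ZP1 links together. The oocyte also secretes GDF9 and BMP15, growth factors of the transforming growth factor beta family that act on the granulosa cells of the follicle. FIGLA, a basic helix-loop-helix factor, activates the zona genes, while NOBOX, SOHLH1 and LHX8 act in early follicles. These RNAs are made in the oocyte, and much of the maternal RNA of the mouse is removed by the 2-cell stage.

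The values are TPM, a measure of abundance per length of transcript within the total of its library, so that levels can be compared between genes. TPM gives a share of the RNA and keeps no depth, and the depth of these libraries is unknown here. The values listed summed to 768174 and 780527 TPM in the controls versus 772487 and 799166 TPM after DMSO. As these sums differ, the genes listed do not hold the same part of each library's total. Shares in percent are of these sums. Between 18369 and 18952 genes were above 0 TPM in a library. In such bulk samples, fewer cells that hold a transcript and less of it per cell cannot be told apart. Differences are DMSO minus control on log2(TPM + 1), a scale that understates the change of low genes, and were tested with limma over the 12038 genes whose mean reached 1 TPM. With 2 libraries against 2, exact permutation of 1 gene cannot give a two-sided p below 0.333, so each adjusted p comes from the fit across all genes.

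Bmp15, Oosp1, Nobox and Lhx8 rose in DMSO-treated embryos. Zp1, Zp2 and Gdf9 had higher values in both DMSO libraries than in both control libraries but did not pass the test, and Zp3 had lower values without passing it. Figla and Sohlh1 had a mean under 1 TPM and were not tested. Thus 4 of the 8 tested genes were called, all higher, where 20.5% of all genes were called, 6.42% higher and 14.1% lower, at an adjusted p under 0.05. The groups did not overlap for any of the 8, with 7 higher and 1 lower, where 31.1% of all genes were higher and 38.7% lower without overlap. Nobox reached the mean of 1 TPM only through the DMSO libraries, so these counts describe the tested genes and support no direction. The median difference of the 8 genes was 1.13, and that of all genes tested was -0.09. Of all calls 31.3% were higher, which became 49.0% after quantile normalization (8.94% of all genes and 6 of the 8 called higher), 45.2% after a correction for transcript length and GC content (9.58% of all genes and 5 of the 8 called higher) and 43.6% when rescaled without mitochondrial genes.

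**Figure D1:**
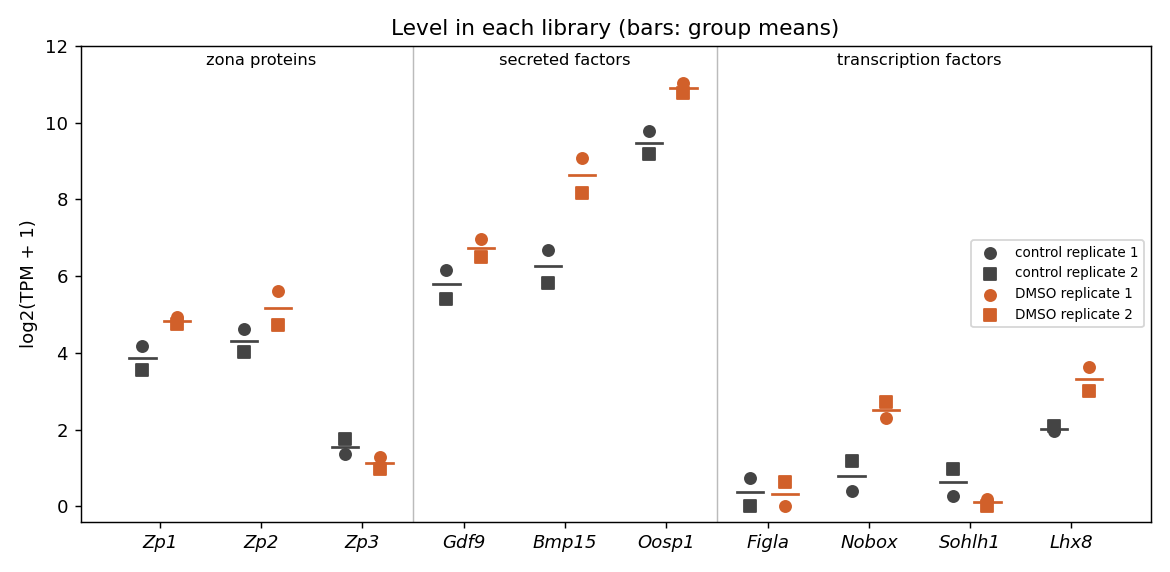
Level of each of the 10 genes in each library as log2(TPM + 1), with circles for replicate 1, squares for replicate 2, dark grey for control, orange for DMSO and short bars for group means. The orange points lie above the dark grey ones for Zp1, Zp2, Gdf9, Bmp15, Oosp1, Nobox and Lhx8, and below them for Zp3 and Sohlh1.

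The levels spanned a wide range. Oosp1 was the most abundant of the 10 genes in every library and held between 73.3% and 81.4% of their summed TPM. In the controls Bmp15 and Gdf9 came next with overlapping values, then Zp2 and Zp1, which also overlapped. Lhx8, Zp3 and Nobox followed without overlap between neighbours, and the values of Nobox, Sohlh1 and Figla overlapped. After DMSO, Bmp15 lay above Gdf9 in both libraries and Nobox lay above Zp3. As a share of the whole TPM sum, the 10 genes held, in percent, 0.143 and 0.0906 in the controls versus 0.369 and 0.276 after DMSO.

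Of the secreted factors, Bmp15 and Oosp1 rose. Bmp15 (ENSMUSG00000023279, chrX:6314107-6320721 of GRCm38, minus strand) was found at 102 and 56.0 TPM in the controls versus 544 and 285 TPM after DMSO, in the order replicate 1 and 2 that is kept throughout. The lowest DMSO library was above the highest control library, and replicate 1 was the higher library in both groups. The mean level was 79.1 ± 32.7 TPM in the controls and 415 ± 183 TPM after DMSO (SD, n = 2 per group), a ratio of 5.24. The log2 difference was 2.36 (standard error 0.42, 95% interval 1.36 to 3.37, limma adjusted p = 0.0221), which ranked 64 from the highest among the 12038 genes. Without control replicate 1, control replicate 2 or DMSO replicate 1 the adjusted p was 0.0873, 0.160 and 0.0954, short of the threshold, and without DMSO replicate 2 it was 0.0299 (limma).

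Oosp1, which encodes a protein secreted by the oocyte (ENSMUSG00000041857, chr19:11667460-11691150 of GRCm38, minus strand), was found at 877 and 576 TPM in the controls versus 2086 and 1763 TPM after DMSO. The gap between the groups was larger than the spread within either. The mean level was 727 ± 213 TPM in the controls and 1924 ± 228 TPM after DMSO (SD, n = 2 per group), a ratio of 2.65, and the log2 difference was 1.43 (standard error 0.29, 95% interval 0.73 to 2.13, limma adjusted p = 0.0273). By its mean TPM it ranked 55 among the genes tested. The call was lost when any of the 4 libraries was left out, with a difference of 1.13 to 1.73 and an adjusted p between 0.0578 and 0.198 (limma).

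Gdf9, whose protein acts with BMP15 in the follicle (ENSMUSG00000018238, chr11:53431023-53437904 of GRCm38, plus strand), was found at 70.4 and 41.4 TPM in the controls versus 123 and 89.2 TPM after DMSO. The step from the highest control to the lowest DMSO library was smaller than the spread within each group. The log2 difference was 0.95 (standard error 0.34, 95% interval 0.12 to 1.77, limma adjusted p = 0.0914). After quantile normalization it was 1.21 with an adjusted p of 0.0460 by limma, past the threshold, out of 0.0460 to 0.210 over the other scalings, filters and variance models. With 1 library left out the difference lay between 0.57 (without control replicate 2) and 1.32 (without control replicate 1), and the adjusted p between 0.0944 and 0.448 (limma).

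Within a library the ratio of 2 genes does not depend on the scaling between libraries. The ratio of Bmp15 to Gdf9 was 1.45 and 1.35 in the controls versus 4.41 and 3.20 after DMSO, so that Bmp15 exceeded Gdf9 in every library and by more in both DMSO libraries. On the log2 scale the group means differed by 1.42, for which no exact test of 2 against 2 can pass the threshold.

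**Figure D2:**
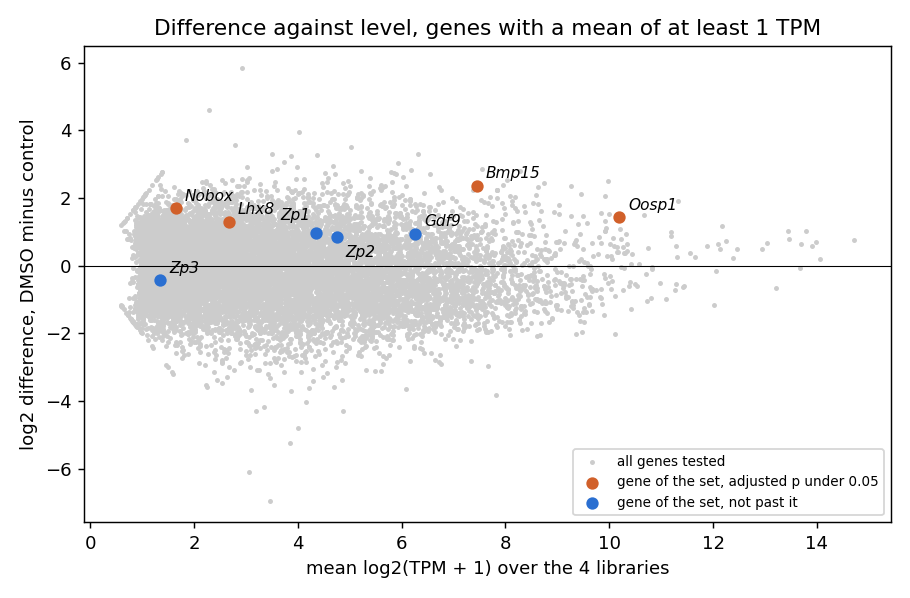
Log2 difference (DMSO minus control) against the mean log2(TPM + 1) of the 4 libraries for the 12038 genes tested in grey, with the 8 tested genes of the set in orange (adjusted p under 0.05) or blue (not past it). Bmp15 has a difference of 2.36 and Oosp1, far to the right, one of 1.43, while Zp3 lies below 0 at -0.42.

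The 3 zona genes did not all differ in the same direction, and none passed the test. Zp1 (ENSMUSG00000024734, chr19:10914287-10920632 of GRCm38, minus strand) was found at 17.1 and 10.7 TPM in the controls versus 29.3 and 25.7 TPM after DMSO. The groups were set apart by more than the spread within the controls. The log2 difference was 0.96 (standard error 0.32, 95% interval 0.19 to 1.74, limma adjusted p = 0.0764). The adjusted p was 0.0454 after quantile normalization and 0.0415 after the length and GC correction, both past the threshold by limma, out of 0.0415 to 0.163 over the other scalings, filters and variance models. With 1 library left out the difference lay between 0.65 (without control replicate 2) and 1.28 (without control replicate 1), and the adjusted p between 0.120 and 0.396 (limma).

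Zp2, whose protein is cleaved after fertilization (ENSMUSG00000030911, chr7:120126772-120145291 of GRCm38, minus strand), was found at 23.4 and 15.4 TPM in the controls versus 48.0 and 25.6 TPM after DMSO. DMSO replicate 2 lay just above control replicate 1, so the groups nearly met. The log2 difference was 0.85 (standard error 0.39, 95% interval -0.09 to 1.79, limma adjusted p = 0.152), and the adjusted p was 0.0836 to 0.298 over the other scalings, filters and variance models. With 1 library left out the difference lay between 0.41 (without DMSO replicate 1) and 1.29 (without DMSO replicate 2), and the adjusted p between 0.0719 and 0.533 (limma).

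Zp3 (ENSMUSG00000004948, chr5:135980099-135988624 of GRCm38, plus strand) was the only tested gene of the set with a lower mean after DMSO. It was found at 1.56 and 2.35 TPM in the controls versus 1.44 and 0.956 TPM after DMSO. These values were low, and those of replicate 1 in both groups were close to each other. The log2 difference was -0.42 (standard error 0.36, 95% interval -1.28 to 0.43, limma adjusted p = 0.402). With 1 library left out the difference lay between -0.62 (without control replicate 1) and -0.23 (without control replicate 2), and the adjusted p between 0.361 and 0.758 (limma). The ratio of Zp2 to Zp3 within a library was 15.0 and 6.54 in the controls versus 33.3 and 26.8 after DMSO, and that of Zp1 to Zp3 was 11.0 and 4.57 in the controls versus 20.3 and 26.9 after DMSO. The ratio of Zp2 to Zp1 overlapped between groups, being 1.37 and 1.43 in the controls versus 1.64 and 0.995 after DMSO.

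Of the transcription factors, the homeobox genes Nobox and Lhx8 rose and the helix-loop-helix genes Figla and Sohlh1 were near 0. Nobox (ENSMUSG00000029736, chr6:43303674-43309554 of GRCm38, minus strand) was found at 0.322 and 1.28 TPM in the controls versus 3.92 and 5.54 TPM after DMSO. Both DMSO libraries were above both controls, whose mean of 0.802 TPM was below the filter. The log2 difference was 1.71 (standard error 0.41, 95% interval 0.73 to 2.68, limma adjusted p = 0.0351). With a pseudocount of 0.1 TPM it was 2.64 with an adjusted p of 0.0521 by limma, short of the threshold, out of 0.0344 to 0.131 over the other scalings, filters and variance models. The call was lost when any of the 4 libraries was left out, with a difference of 1.31 to 2.10.

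Lhx8 (ENSMUSG00000096225, chr3:154306294-154330659 of GRCm38, minus strand) was found at 2.87 and 3.26 TPM in the controls versus 11.4 and 7.07 TPM after DMSO. Its control libraries lay close together, well below both DMSO libraries. The mean level was 3.06 ± 0.274 TPM in the controls and 9.23 ± 3.05 TPM after DMSO (SD, n = 2 per group), and the log2 difference was 1.30 (standard error 0.35, 95% interval 0.46 to 2.14, limma adjusted p = 0.0461). This call was near the threshold and was also lost when any of the 4 libraries was left out, with a difference of 0.99 to 1.61.

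Figla (ENSMUSG00000030001, chr6:86016171-86020996 of GRCm38, plus strand) was listed at 0.667 and 0 TPM in the controls versus 0 and 0.541 TPM after DMSO. Sohlh1 (ENSMUSG00000059625, chr2:25842995-25847248 of GRCm38, minus strand) was listed at 0.214 and 0.962 TPM in the controls versus 0.150 and 0 TPM after DMSO. Figla overlapped between groups, while both DMSO values of Sohlh1 were below both control values, and no fold change is given at such levels.

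Without control replicate 1, control replicate 2 or DMSO replicate 1, limma called 0 of the 12038 genes, with 3745, 2602 and 3078 genes at an unadjusted p under 0.05. This holds for each gene called in the text. Without a filter on low values limma called 0 of 22257 genes, with 5368 at an unadjusted p under 0.05, and the adjusted p of Bmp15 was 0.106.

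**Figure D3:**
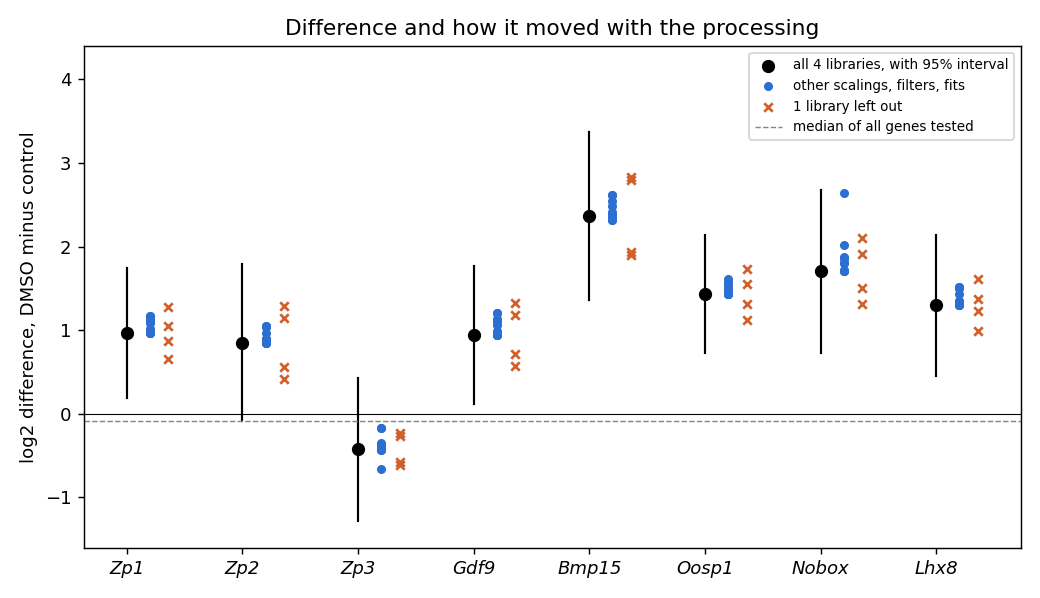
Log2 difference (DMSO minus control) of the 8 tested genes, with black points and lines for the fit on all 4 libraries and its 95% interval, blue points for other scalings, filters and fits, orange crosses for fits with 1 library left out, and a dashed line at the median of all genes tested (-0.09). Zp3 stays below 0 and the other 7 genes stay above 0 in every fit drawn.

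Library composition also moved with the groups. Transcripts of the mitochondrial genome held, in percent of the TPM sum, 10.8 and 12.4 in the controls versus 15.3 and 21.7 after DMSO. The 20 most abundant genes of a library held, in percent, 22.1 and 23.6 in the controls versus 29.4 and 35.1 after DMSO. Rescaled without mitochondrial genes, the log2 difference was 2.48 for Bmp15, 1.55 for Oosp1, 1.88 for Nobox and 1.43 for Lhx8. All 4 were past the threshold by limma, where 7.92% of all genes were called higher.

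Promoter sequence was in the RefSeq table (GRCm38.p6) for 7 of the 10 genes, that is, not for Zp1, Zp2 and Gdf9. Bases upstream of the annotated start are shown for Bmp15 (chrX:6320735-6320974, minus strand), Nobox (chr6:43309565-43309804, minus strand) and Oosp1 (chr19:11691152-11691301, minus strand), which were called, and for Zp3 (chr5:135979855-135980094, plus strand), whose difference had the other sign. Each window begins 250 bases before the RefSeq start and stops short of any annotated transcript. Capitals mark, on either strand, the E-box letters CANNTG, the kind bound by helix-loop-helix factors such as FIGLA, and the homeobox letters TAATTG (or the variants TAATTA and also TAGTTG), the kind bound by factors such as NOBOX and LHX8.
Bmp15: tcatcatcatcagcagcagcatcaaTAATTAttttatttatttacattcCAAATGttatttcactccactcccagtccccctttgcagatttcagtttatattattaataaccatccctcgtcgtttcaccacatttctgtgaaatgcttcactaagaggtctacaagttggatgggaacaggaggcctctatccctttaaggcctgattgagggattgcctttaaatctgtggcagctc
Nobox: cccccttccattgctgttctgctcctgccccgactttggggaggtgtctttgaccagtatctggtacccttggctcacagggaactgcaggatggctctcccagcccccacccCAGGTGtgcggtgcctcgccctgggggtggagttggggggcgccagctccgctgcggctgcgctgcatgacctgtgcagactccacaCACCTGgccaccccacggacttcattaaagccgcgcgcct
Oosp1: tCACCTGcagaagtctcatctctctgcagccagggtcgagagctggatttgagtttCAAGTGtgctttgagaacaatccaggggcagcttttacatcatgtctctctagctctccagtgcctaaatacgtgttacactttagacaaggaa
Zp3: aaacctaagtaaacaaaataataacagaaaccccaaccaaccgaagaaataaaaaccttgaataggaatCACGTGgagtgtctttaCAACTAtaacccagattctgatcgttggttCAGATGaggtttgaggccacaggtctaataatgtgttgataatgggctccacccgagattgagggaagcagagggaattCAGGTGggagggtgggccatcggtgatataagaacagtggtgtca

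Over the 250 bases before the start, CANNTG was present in 6 of the 7 genes, all but Lhx8, and in 66.2% of 32851 promoter windows of that length. Oosp1 and Sohlh1 held 5 copies each, Zp3 held 3, Figla and Nobox held 2 each and Bmp15 held 1. Of these, 3 of the copies of Oosp1 and both copies of Figla lie inside the gene as GENCODE annotates it, which begins upstream of the RefSeq start. Homeobox letters were found in Bmp15 and Zp3. Bmp15 held TAATTA 225 bases before the start, letters present in 4.84% of all windows, and Zp3 held TAGTTG on the other strand 164 bases before the start, letters present in 5.69%. TAATTG, present in 7.17% of all windows, was in none of the 7. These matches are a description of letters and not binding sites.

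Oosp1 lies between its paralogues Oosp2 and Oosp3 on chromosome 19, and all 3 genes rose. Oosp2 was found at 44.9 and 37.1 TPM in the controls versus 165 and 97.5 TPM after DMSO (log2 difference 1.61, standard error 0.33, limma adjusted p = 0.0271). Oosp3 was found at 165 and 81.7 TPM in the controls versus 1075 and 627 TPM after DMSO (log2 difference 2.81, standard error 0.42, limma adjusted p = 0.0184), with a difference that ranked 19 from the highest. The groups did not overlap for either gene. The ratio of Oosp3 to Oosp1 was 0.189 and 0.142 in the controls versus 0.516 and 0.355 after DMSO, without overlap, while the ratio of Oosp2 to Oosp1 overlapped, being 0.0512 and 0.0644 in the controls versus 0.0793 and 0.0553 after DMSO. Of the 31-base words of their transcripts, those of Oosp1 and Oosp2 occurred in no other gene, and 3.78% of those of Oosp3 did. Without DMSO replicate 2 the adjusted p was 0.0299 for Oosp2 and 0.0299 for Oosp3 (limma).

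**Figure D4:**
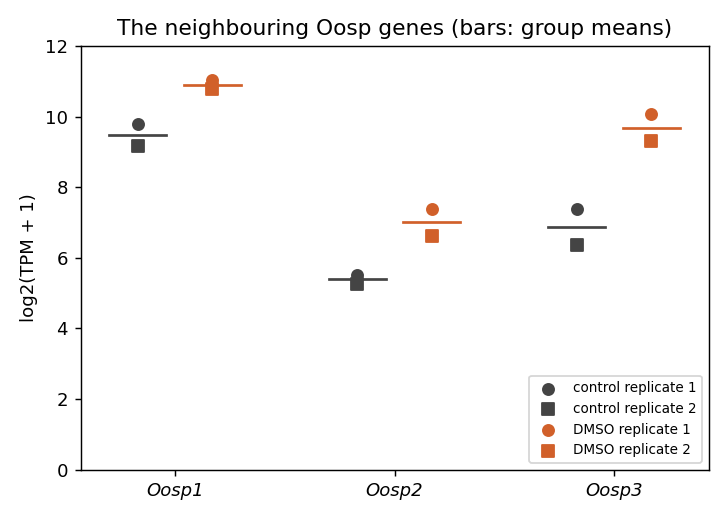
Level of Oosp1, Oosp2 and Oosp3 in each library as log2(TPM + 1), with circles for replicate 1, squares for replicate 2, dark grey for control, orange for DMSO and short bars for group means. Both DMSO libraries lie above both control libraries for each gene, with differences of 1.43, 1.61 and 2.81.

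Of the 18 other genes of the table within 200000 bases of the Oosp genes, looked up after their values were seen, 4 reached a mean of 1 TPM, Ms4a4b only through the DMSO libraries, and 0 were called, beside 20.5% of all genes. With 4 genes this does not show that they were unchanged. The adjusted p was 0.178 for Ms4a4b, 0.243 for Ms4a6d, 0.186 for Mrpl16 and 0.0693 for Gm6365 (limma). Ms4a4b and Ms4a6d had higher values after DMSO. Mrpl16, a mitochondrial ribosomal protein gene, and Gm6365 had lower ones, Mrpl16 being found at 13.9 and 18.1 TPM in the controls versus 8.19 and 11.8 TPM after DMSO.

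Among other genes of zona cleavage and the egg surface, a list that includes Oosp2 and Oosp3, 5 of 7 were tested, with 3 called higher, 0 lower and a median difference of 1.61, beside 6.42% of all genes called higher and 14.1% lower. Besides the Oosp genes, Izumo1r rose, which encodes the egg receptor for the sperm protein IZUMO1 and was found at 0.822 and 0.436 TPM in the controls versus 5.85 and 3.15 TPM after DMSO (log2 difference 1.72, standard error 0.39, limma adjusted p = 0.0327). It reached a mean of 1 TPM only through the DMSO libraries, and without DMSO replicate 2 its adjusted p was 0.0404 (limma). With a pseudocount of 0.1 TPM its difference was 2.64 (limma adjusted p = 0.0406), and without DMSO replicate 1 it was 1.36 (limma adjusted p = 0.138). Astl and Cd9 are named for their roles, after their values were seen. Astl, the protease ovastacin that cleaves ZP2, was found at 5.29 and 2.75 TPM in the controls versus 4.80 and 4.31 TPM after DMSO, with overlapping groups and a log2 difference of 0.19 (standard error 0.38, 95% interval -0.71 to 1.09, limma adjusted p = 0.720). Cd9, a tetraspanin needed for gamete fusion, was found at 89.2 and 108 TPM in the controls versus 62.3 and 78.0 TPM after DMSO, with a log2 difference of -0.49 (standard error 0.27, 95% interval -1.14 to 0.16, limma adjusted p = 0.214), and 20.1% of its 31-base words also occur in other genes.

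Among receptors, transducers, proteases and antagonists of GDF9 and BMP15, 8 of 18 genes were tested, with 1 called higher, 1 lower and a median difference of 0.32, beside 6.42% of all genes called higher and 14.1% lower. Furin, a protease that cleaves precursors of this growth factor family, rose, with 5.07 and 4.92 TPM in the controls versus 17.0 and 12.9 TPM after DMSO (log2 difference 1.40, standard error 0.31, limma adjusted p = 0.0313). Smad7, an inhibitor of the pathway, fell, with 21.7 and 27.2 TPM in the controls versus 7.54 and 8.36 TPM after DMSO (log2 difference -1.50, standard error 0.29, limma adjusted p = 0.0249). Neither gene overlapped between groups. Without DMSO replicate 2 the adjusted p was 0.0475 for Smad7 and 0.0534, short of the threshold, for Furin (limma). Smad2, a transducer of the GDF9 branch, was found at 16.5 and 14.8 TPM in the controls versus 23.7 and 16.4 TPM after DMSO, with overlapping groups and a log2 difference of 0.32 (standard error 0.31, 95% interval -0.42 to 1.06, limma adjusted p = 0.458). Smad3, the other transducer of that branch, was found at 7.18 and 6.86 TPM in the controls versus 14.1 and 14.6 TPM after DMSO, without overlap, and did not pass (log2 difference 0.94, standard error 0.29, limma adjusted p = 0.0623). Smad4, the shared partner of the transducers, had lower values without overlap, at 5.62 and 10.6 TPM in the controls versus 1.56 and 4.50 TPM after DMSO, and did not pass (log2 difference -1.22, standard error 0.49, limma adjusted p = 0.113). Bmpr2, the type II receptor of both factors, was found at 9.98 and 7.67 TPM in the controls versus 13.2 and 9.36 TPM after DMSO, also with overlap (limma adjusted p = 0.495). The 2 calls among 8 genes of the list are close to the 20.5% of all genes called in either direction. Smad3, Smad4 and Bmpr2 are named for their roles, after their values were seen.

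A list of partners of the oocyte transcription factors also held the oocyte genes Tbpl2, Foxo3 and Kit, which were the 3 called. Of its 9 genes, 8 were tested, with 3 called higher, 0 lower and a median difference of 0.66. Of all genes, 6.42% were called higher and 14.1% lower. Tcf3, Tcf4, Tcf12 and Ldb1 were not called, with log2 differences of -0.03, 0.45, -0.45 and 0.88, and Sohlh2 was not tested. Tbpl2, an oocyte relative of the TATA-binding protein, was found at 3.44 and 1.56 TPM in the controls versus 23.4 and 7.95 TPM after DMSO (log2 difference 2.13, standard error 0.55, limma adjusted p = 0.0408). Foxo3, which holds primordial follicles dormant, was found at 20.4 and 13.2 TPM in the controls versus 41.9 and 38.2 TPM after DMSO (log2 difference 1.24, standard error 0.31, limma adjusted p = 0.0393). Kit, the oocyte receptor for Kit ligand, was found at 3.56 and 2.81 TPM in the controls versus 9.63 and 7.76 TPM after DMSO (log2 difference 1.21, standard error 0.32, limma adjusted p = 0.0449). The groups of these 3 genes did not overlap, and without DMSO replicate 2 the adjusted p was 0.0341 for Tbpl2 and, short of the threshold, 0.0738 for Foxo3 and 0.0828 for Kit (limma). Foxo3 was also short of it without a mean-variance trend in the fit (limma adjusted p = 0.0506). The difference of Tbpl2 was 2.85 without DMSO replicate 2 and 1.41 without DMSO replicate 1, where the adjusted p was 0.175 (limma), short of the threshold. Taf4b, a germ-cell subunit of the general factor TFIID and the most abundant of the list, was found at 90.8 and 91.8 TPM in the controls versus 54.5 and 55.2 TPM after DMSO, a log2 difference of -0.72 (standard error 0.25, 95% interval -1.31 to -0.14, limma adjusted p = 0.0774).

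Of 12 other oocyte transcripts, 11 were tested, with 2 called higher, 0 lower and a median difference of 0.83. Of all genes 6.42% were called higher, 14.1% lower and 20.5% in either direction, which is close to 2 of 11. Without overlap, 6 were higher and 1, Mos, was lower, beside 31.1% and 38.7% of all genes. Mos, Padi6 and Khdc3 were not called, with log2 differences of -0.54, -0.80 and -0.22. Padi6 reached a mean of 1 TPM only through the control libraries. Ybx2, an RNA-binding protein of germ cells, was found at 81.1 and 60.8 TPM in the controls versus 225 and 209.8 TPM after DMSO (log2 difference 1.61, standard error 0.27, limma adjusted p = 0.0209). Btg4, an adaptor in the removal of maternal RNA, was found at 813 and 446 TPM in the controls versus 2207 and 1380.0 TPM after DMSO (log2 difference 1.53, standard error 0.38, limma adjusted p = 0.0385). Neither overlapped between groups, and without DMSO replicate 2 the adjusted p was 0.0379 for Ybx2 and 0.0526, short of the threshold, for Btg4 (limma). Btg4 was also short of it without a mean-variance trend in the fit (limma adjusted p = 0.0530). Dppa3, a maternal factor and the most abundant of the list, was found at 11639 and 15346 TPM in the controls versus 10828 and 15216 TPM after DMSO, with overlapping groups and a log2 difference of -0.06 (standard error 0.30, 95% interval -0.78 to 0.67, limma adjusted p = 0.895). Of its 31-base words 29.6% also occur in other genes, so that its level is uncertain.

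By the distance of log2(TPM + 1) over the 4 libraries, the genes most like Oosp1, the secreted factor gene with the highest mean, were Btg4 (0.528), Prdx2 (0.579) and Gm10720 (0.616). Those most like Zp2, the zona gene with the highest mean over the 4 libraries, were Asap1 (0.149), Usp47 (0.239) and Skap2 (0.243). Within a distance of 0.5 lay 43 genes for Zp2 and 0 for Oosp1. This distance counts level as well as the difference between groups. Few genes are as abundant as Oosp1, which ranked 55 by mean TPM where Zp2 ranked 3257, so the 2 counts do not compare responses.

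Markers of the cells that the samples could hold were read beside these genes. Of 12 markers of the 2-cell embryo, 3 of which are also in the list of oocyte transcripts, 11 were tested, with 3 called higher and 0 lower, beside 6.42% of all genes called higher and 14.1% lower. The most abundant was Tcstv3, at 297 and 209 TPM in the controls versus 716 and 574 TPM after DMSO (log2 difference 1.36, standard error 0.28, limma adjusted p = 0.0281), and Tcstv1 and Zfp352 also rose (limma adjusted p = 0.0222 and 0.0209). The list summed to 993 and 728 TPM in the controls versus 2559.8 and 1776 TPM after DMSO, and Nlrp5 was at or near 0 in each library. The median difference of the 11 was 0.81, and 7 were higher without overlap, beside 31.1% of all genes. The other 4 overlapped between groups. These were Zscan4d, Tdpoz1, Usp17la and Tdpoz4, with log2 differences of -0.05, 0.01, 0.49 and 0.63. Many 2-cell genes have close copies, and the share of 31-base words also found in other genes was 51.0% for Tcstv3, 28.6% for Tcstv1, 21.5% for Zfp352, 91.5% for Zscan4c and 91.7% for Zscan4f, so that their levels are uncertain. Without DMSO replicate 2 the adjusted p of the 3 genes lay between 0.0321 and 0.0479 (limma). The part of these markers in the result was not tested.

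Granulosa and cumulus cells surround the oocyte in the follicle and respond to GDF9 and BMP15. Amh was listed at 0 in every library, and Fshr and Foxl2 were at most 0.0431 and 0.0828 TPM. Not all were so near 0. Tnfaip6 was found at 1.52 and 0.225 TPM in the controls versus 0.958 and 0.970 TPM after DMSO, with overlapping groups. Star was found at 0.733 and 0.779 TPM in the controls versus 0.286 and 0.556 TPM after DMSO. Both had a mean under 1 TPM. The 12 markers summed to 40.5 and 32.2 TPM in the controls versus 13.3 and 20.3 TPM after DMSO, most of it from Amhr2, which fell, with 36.8 and 29.6 TPM in the controls versus 8.29 and 16.5 TPM after DMSO (log2 difference -1.42, standard error 0.38, limma adjusted p = 0.0442). The call of Amhr2 was near the threshold and was lost in 7 of 8 other scalings, pseudocounts, filters and variance models, beside the fit with no filter, with a difference of -1.49 to -1.14 and an adjusted p of up to 0.0710 (limma). Of the 2 tested, Amhr2 and Cyp11a1, 0 were called higher (6.42% of all genes) and 1 lower (14.1%). Cyp11a1, a steroid synthesis enzyme, had higher values after DMSO, at 0.781 and 0.802 TPM in the controls versus 2.10 and 0.958 TPM after DMSO, and did not pass (log2 difference 0.46, standard error 0.38, limma adjusted p = 0.390). It reached a mean of 1 TPM only through the DMSO libraries. Cyp19a1, the aromatase gene, had a mean under 1 TPM and also had higher values after DMSO, at 0.422 and 0.494 TPM in the controls versus 1.25 and 1.08 TPM after DMSO. Of 6 sperm and spermatid markers, which summed to 2.96 and 3.38 TPM in the controls versus 13.5 and 8.69 TPM after DMSO, 2 were tested and both rose (6.42% of all genes were called higher). Prm2, a protamine and the most abundant, was found at 2.56 and 2.86 TPM in the controls versus 11.0 and 6.79 TPM after DMSO (log2 difference 1.39, standard error 0.36, limma adjusted p = 0.0408), Tnp1 at 0.281 and 0 versus 2.08 and 1.69 TPM (log2 difference 1.35, standard error 0.35, limma adjusted p = 0.0429), and Tnp2 was listed at 0 in every library. Tnp1 reached a mean of 1 TPM only through the DMSO libraries, and with a pseudocount of 0.1 TPM its difference was 3.34 with an adjusted p of 0.0845 (limma), short of the threshold. Prm1, the other protamine, at 0 and 0.526 versus 0.267 and 0 TPM, and Akap4, at 0.121 and 0 versus 0.0319 and 0.124 TPM, overlapped between groups and had a mean under 1 TPM. Without DMSO replicate 2 the adjusted p was 0.0360 for Amhr2 and, short of the threshold, 0.0526 for Prm2 and 0.0576 for Tnp1 (limma). The part of the sperm markers in the result was not tested.

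The 6 genes of later embryos summed to 87.4 and 90.5 TPM in the controls versus 38.8 and 49.3 TPM after DMSO. Tfap2c held most of this sum in each library, and its fall was larger than that of the sum. Of the 6 genes, 4 were tested, with 0 called higher and 1 lower, beside 6.42% of all genes called higher and 14.1% lower. Tfap2c, a trophoblast factor and the most abundant, fell, with 76.2 and 79.5 TPM in the controls versus 21.4 and 32.1 TPM after DMSO (log2 difference -1.53, standard error 0.30, limma adjusted p = 0.0247), and without DMSO replicate 2 its adjusted p was 0.0310 (limma). The other tested genes did not pass. Nanog, a pluripotency factor, had higher values after DMSO, at 7.73 and 7.04 TPM in the controls versus 11.5 and 14.0 TPM after DMSO (log2 difference 0.71, standard error 0.30, limma adjusted p = 0.129), as had Gata3, at 1.58 and 1.16 TPM in the controls versus 4.84 and 2.50 TPM after DMSO (log2 difference 0.94, standard error 0.39, limma adjusted p = 0.123), while Gata6 had lower values, at 1.79 and 2.80 TPM in the controls versus 0.958 and 0.274 TPM after DMSO (log2 difference -1.04, standard error 0.39, limma adjusted p = 0.0980). Gata6 reached a mean of 1 TPM only through the control libraries. Cdx2 was at most 0.197 TPM.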

How the data were processed

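RNA of 2-cell embryos was measured in 4 libraries, grouped by the sample titles. The authors quantified reads with kallisto against Ensembl transcripts of GRCm38, summed them per gene with tximport and deposited TPM values, the unit used here. Names and positions came from GENCODE M21. The fit used limma 3.58.1 under R 4.3.3 (eBayes with trend, without a replicate block, Benjamini-Hochberg over all genes tested, threshold 0.05) because TPM values are not counts, and its code was tested on simulated data. Alternatives were a pseudocount of 0.1 TPM, no filter or a mean of 5 TPM, no trend, median-ratio or quantile scaling, leaving out mitochondrial or the 20 most abundant genes, a length and GC correction, a replicate block, and leaving out each library, where the lone library of a group is taken to vary like the other group. Python 3.11.15 drew the figures. Text names the 10 genes, called genes, the 2 most abundant of each list and the genes nearest in level over the 4 libraries. Other list genes were picked after their values were seen. They have a known role, are at or near 0, overlap between groups or differ in direction from their list. The 10 genes, lists and tests were chosen with earlier results of these data known. Acvr1b and Zp4-ps were not analysed here.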

Additional observations from a re-analysis of the deposited data

How the results depend on the processing

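All 8 genes kept their direction under each of the 16 alternatives in which they were tested. For most alternatives this was fixed in advance. The filters, the trend and the replicate block leave the difference itself unchanged. As the groups overlapped for none of the 8 genes, a smaller pseudocount or leaving out 1 library could not reverse it either. Only the changes of scaling and the length and GC correction could have done so. The number of these genes called was 4 and that of all genes 2470. With no filter on low values both were 0. Of the 8 genes, 6 were called after quantile normalization (Zp1 and Gdf9 added, 8.94% of all genes called higher). The length and GC correction gave 5 (Zp1 added, 9.58% of all genes called higher). A pseudocount of 0.1 TPM gave 3 (without Nobox, 5.03% of all genes called higher). With a mean of at least 5 TPM, 3 of the 6 tested were called (Nobox not tested, 10.3% of all genes called higher). The count was 4 with no trend (5.23% of all genes called higher) and with median-ratio scaling (7.24%). It was also 4 without mitochondrial genes (7.92%) and without the 20 most abundant genes (8.53%). With the replicate block 7 of the 8 genes (17.9% of all genes called higher) and 5132 of all genes were called, with the block and quantile normalization 7 and 4732, and with the block and the length and GC correction 7 and 5056. Zp1, Zp2 and Gdf9 were added by the block (limma adjusted p = 0.0206, 0.0241 and 0.0119), and Zp3 was not called. Leaving out 1 library gave 0 to 1 of the 8 genes and 0 to 1883 of all genes. Libraries with the same replicate number deviated together (r = 0.35 across 12038 genes, which are not independent), but with 2 pairs and no label of a shared batch it is not known whether a number marks more than an order, and they were not treated as pairs. The median of all genes shifted by 0.15 without the 20 most abundant genes, by 0.10 with the length and GC correction and by -0.10 with a mean of at least 5 TPM, which changes the genes tested. Relative to that median, over fits on all libraries, the difference was 2.30 to 2.61 for Bmp15, 1.43 to 1.62 for Oosp1, 1.71 to 2.75 for Nobox, 1.30 to 1.63 for Lhx8 and -0.55 to -0.19 for Zp3. Without the 20 most abundant genes 1025 of 2050 calls were higher. Depth is unknown, so the low values of Figla, Sohlh1, Nobox and Zp3 have no counting interval.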
